A study of Homo sapiens with 6 samples.

Results

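The integrin, laminin and focal adhesion genes are 41 listed genes whose products hold an epithelial cell to its basement membrane or build that membrane. They were chosen by gene symbol: every probe set of the array annotated to one of these symbols counted, alone or together with another gene. The rule found 113 probe sets for 39 of the 41 genes, out of 21357 gene symbols on the array. LAMA3 and DAG1 were not analysed here. ITGB6 was read only by probe sets that also list a long noncoding RNA, which left 38 genes with a value of their own on 108 probe sets.

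Total RNA of MCF10A cells, a human breast epithelial line that is established in culture and not tumorigenic, was hybridised to 6 single-colour Affymetrix arrays. In 3 biological replicates the cells had received a mimic labelled miR-221/222, and in the other 3 a control labelled miR-control; they are called mimic and control below. All groups are this 1 cell line, and no source used here gives the sequence or dose of the agents or the time after transfection. Each value is the log2 intensity of a probe set, so a difference of 1 is a doubling, and the number of arrays limits the precision.

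Integrins are surface receptors made of an alpha and a beta subunit, and the pair decides which matrix protein is bound. Laminins are trimers of an alpha, a beta and a gamma chain and form the sheet of the basement membrane. Basal mammary cells fix themselves to this sheet by hemidesmosomes, which link an integrin to keratin filaments, and by focal adhesions, which link integrins to actin and hold signalling kinases. MicroRNAs such as miR-221 and miR-222 pair with messenger RNAs through a short seed and lower their level or translation. The natural mature strands are shown to identify the microRNAs the mimic is named for, from RefSeq (GRCh38.p14), 5′ to 3′, with the seed (bases 2 to 8) in capitals. Both come from the minus strand of chromosome X, at chrX:45746180-45746202 and chrX:45747036-45747056.
hsa-miR-221-3p: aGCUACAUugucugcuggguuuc
hsa-miR-222-3p: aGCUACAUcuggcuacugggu
The seed is the same in both strands.

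The array medians lay between 7.59 and 7.66. By limma with Benjamini-Hochberg adjustment over 54613 probe sets, 6013 of 19775 genes (30.4%) passed an adjusted p of 0.05, 14.1% higher and 16.3% lower in the mimic arrays. The median log2 change of all genes was 0.03. As a check of the label, a marker list for basal mammary epithelium was read, with 6 genes measured. EPCAM and CDH1 among them are epithelial genes that are not particular to basal cells. All 6 were bright, with group means from 8.66 to 13.01 in the mimic arrays, against 10.2 to 13.81 in the control arrays. All 6 also fell, by between 2.23 (KRT14) and 0.56 (CDH1) on the log2 scale. Their summed log2 level was 67.4 to 67.9 in the mimic arrays, against 74.8 to 75.3 in the control arrays; its part in the results below was not tested. The summed log2 level of 9 fibroblast markers was 74.9 to 76.0 in the mimic, against 76.2 to 76.4 in the control arrays. Of these DCN rose, and LUM and FAP fell. Of 6 endothelial markers KDR fell and 5 did not pass, and none of 3 smooth muscle markers passed. No detection calls were used, so which dim markers lie above background is not known. In RNA of whole cultures, fewer cells of a type and less RNA per cell cannot be told apart. The 3′ minus 5′ log2 signal, a sign of RNA quality, was 0.36 ± 0.03 in the mimic, against 0.32 ± 0.04 in the control arrays for ACTB (n = 3 each, SD; exact two-sided permutation p = 0.3, where 0.1 is the smallest possible). For GAPDH it was 0.03 ± 0.01 in the mimic, against -0.01 ± 0.04 in the control arrays (n = 3 each, SD; exact two-sided permutation p = 0.1).

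Of the 38 members, 21 fell and 4 rose, and 13 did not pass. That is 55.3% lower and 10.5% higher, where 16.3% of all genes fell and 14.1% rose. The median log2 change was -0.22 for the members and 0.03 for all genes. Falls lay in both integrin subunit groups and in the laminin chains, while the rises were CD151, LAMB3, DST and ILK. The mimic arrays lay entirely below the control arrays for 21 members (21.9% of all genes) and entirely above them for 5 (23.7% of all genes), so that 26 of 38 did not overlap, where 45.6% of all genes did not. Among members changed at least 1.5-fold, 11 fell (5.48% of all genes did) and 1 rose (3.24% of all genes did), 12 in all (8.71% of all genes). Bright genes passed more often: of the 13041 genes whose mean was above every array median, 22.8% fell and 17.9% rose, 40.7% in all. Of the 34 members that bright, 20 fell and 4 rose. The members were chosen with earlier results in view, and these shares are a description.

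**Figure D1:**
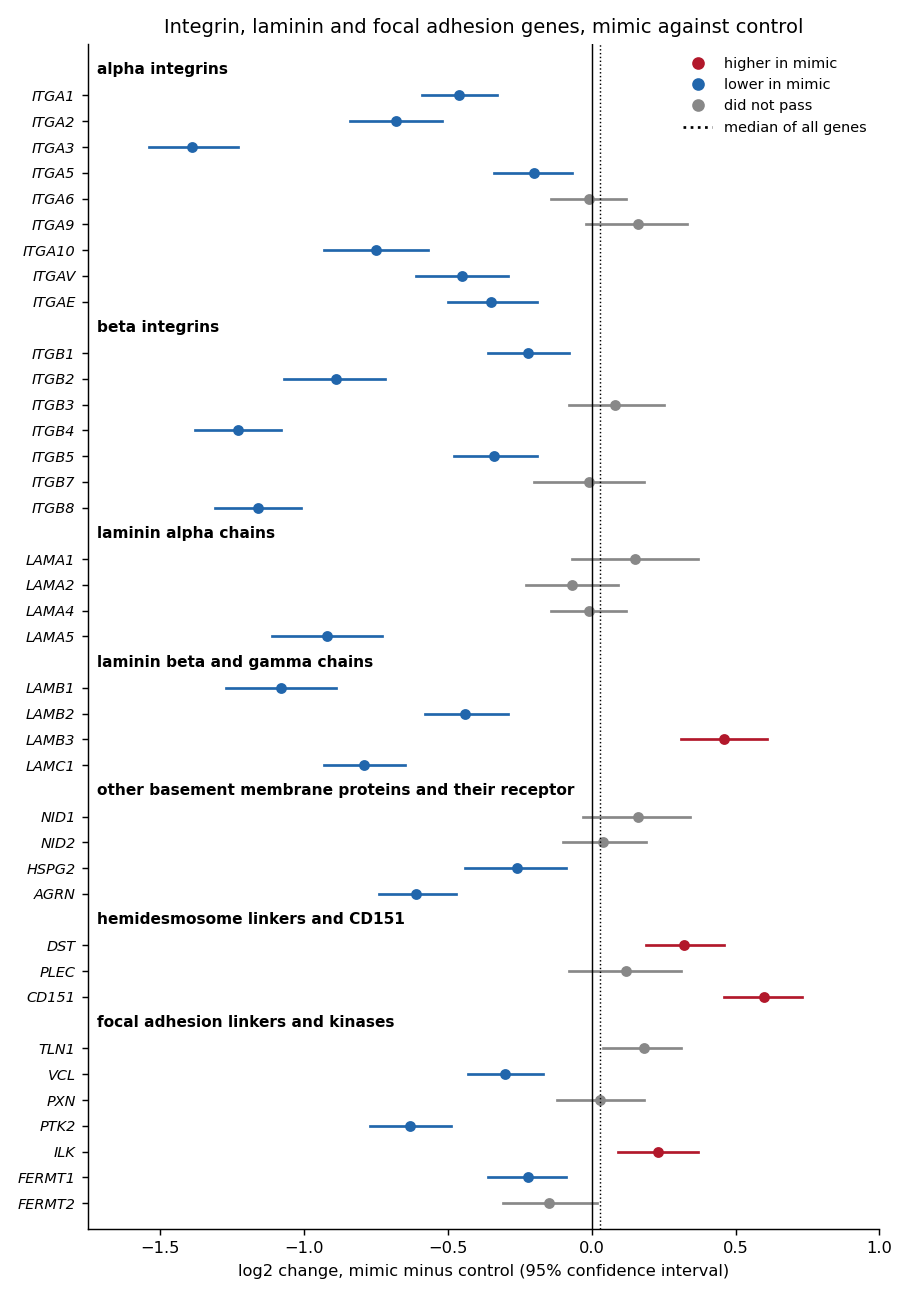
The log2 change (mimic minus control, horizontal axis) of the 38 members, grouped by role, with 95% confidence intervals from limma; blue genes passed as lower, red as higher, and grey did not pass. The lowest is ITGA3 at -1.39 and the highest CD151 at 0.60, and the dotted line is the median of all genes, 0.03.

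Alpha subunits set most of an integrin's ligand choice. Of the 9 measured, 7 fell, 0 rose and 2 did not pass (median log2 change -0.45). ITGA3, whose protein pairs with the beta-1 chain as a laminin receptor, read 9.88, 10.08 and 10.01 in the mimic arrays, against 11.43, 11.38 and 11.32 in the control arrays. The groups were far apart, with a log2 change of -1.39 ± 0.07 (SE; limma adjusted p = 1.16e-07), 2.62-fold higher in the control. Only 1.06% of all genes had a lower change. ITGA6 encodes the partner of the beta-4 chain in hemidesmosomes. It read 12.44, 12.44 and 12.45 in the mimic arrays, against 12.49, 12.39 and 12.46 in the control arrays. These overlap, and the log2 change of -0.01 had a 95% interval from -0.14 to 0.12 (adjusted p = 0.948). Its second probe set, at -0.05, did not pass either.

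ITGA2, the alpha chain of a collagen receptor, read 10.17, 10.29 and 10.34 in the mimic arrays, against 11.03, 10.95 and 10.87 in the control arrays. It fell by 0.68 ± 0.07 (SE) at this probe set and by 0.44 at the other one. ITGA10, also a collagen receptor chain, read 8.73, 8.47 and 8.79 in the mimic arrays, against 9.39, 9.45 and 9.41 in the control arrays. Its log2 change was -0.75 ± 0.08 (SE; adjusted p = 4.38e-05), and every mimic array lay below every control array. ITGA1, another collagen receptor chain, fell by 0.46 ± 0.06 (SE), and the same direction passed at 2 of its 3 probe sets; it averaged 6.91 over all arrays, under the array medians. These 3 collagen-binding chains thus passed with smaller changes than the laminin receptor chain ITGA3.

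ITGAV, the alpha chain shared by receptors for vitronectin, fibronectin and latent TGF-beta, read 11.63, 11.61 and 11.75 in the mimic arrays, against 12.22, 12.08 and 12.04 in the control arrays. The fall was 0.45 ± 0.07 (SE; adjusted p = 0.000728). ITGAE, whose protein is carried by lymphocytes and binds E-cadherin, fell by 0.35 ± 0.07 (SE). ITGA5, the fibronectin receptor chain, had the smallest passing change of the alpha chains, -0.20 ± 0.06 (SE; adjusted p = 0.0321). It did not pass without mimic replicate 1 (adjusted p = 0.0619), mimic replicate 2 (0.0892), control replicate 1 (0.118) or control replicate 2 (0.1), nor with the replicate number as a block (0.0606) or after quantile normalization again (log2 change -0.14, adjusted p = 0.0736). ITGA9, a receptor chain for tenascin, had a log2 change of 0.16 with a 95% interval from -0.02 to 0.33, and none of its 4 probe sets passed.

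Beta subunits carry the tail that connects to the cytoskeleton. Of the 7 with a value, 5 fell, 0 rose and 2 did not pass (median -0.34). ITGB4, the long-tailed beta chain of hemidesmosomes, read 11.5, 11.66 and 11.64 in the mimic arrays, against 12.77, 12.88 and 12.85 in the control arrays. Its log2 change at the brightest probe set was -1.23 ± 0.07 (SE; adjusted p = 2.1e-07), with -1.34 and -1.35 at the next 2. The 2 dimmest of its 5 probe sets, at -0.03 and -0.18, did not pass. The 3 brighter probe sets of ITGB4 differed little in the size of the fall, while its usual partner ITGA6 had the interval given above.

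ITGB8, which with the ITGAV chain binds and activates latent TGF-beta, read 12.10, 12.20 and 12.28 in the mimic arrays, against 13.42, 13.34 and 13.31 in the control arrays. The change was -1.16 ± 0.07 (SE; adjusted p = 3.48e-07), 2.24-fold higher in the control. It fell at 4 of its 5 probe sets. The largest of these changes was -2.03 ± 0.12 (SE), at a probe set that read 6.28, 6.67 and 6.83 in the mimic, against 8.59, 8.73 and 8.55 in the control arrays. That probe set has a mean of 7.61 over all arrays, so its size of change rests on readings that cross the array medians. ITGB2, the beta chain of leukocyte integrins, read 8.12, 7.94 and 7.89 in the mimic arrays, against 8.83, 9.0 and 8.80 in the control arrays. It fell by 0.89 ± 0.08 (SE) there and by 1.13 at a second probe set. That second probe set averaged 7.33 in the mimic arrays, under the array medians, against 8.47 in the control arrays. The remaining probe set of ITGB2, at -0.12, did not pass. ITGB2 is known mainly from blood cells, and of 5 blood cell markers CD14 fell and ITGAM, itself a partner chain of ITGB2, passed as higher close to the threshold (adjusted p = 0.0483), a call that many other settings lost. The summed log2 level of those markers was 41.4 to 41.7 in the mimic, against 42.1 to 42.3 in the control arrays, with PTPRC at 7.16 and 7.07, under the array medians; their part in the ITGB2 result was not tested.

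ITGB1, the most widely shared beta chain, had the brightest probe set of all members and read 13.44, 13.48 and 13.55 in the mimic arrays, against 13.76, 13.69 and 13.68 in the control arrays. The groups did not overlap but lay close, with a change of -0.22 ± 0.06 (SE; adjusted p = 0.024). This probe set did not pass without mimic replicate 1 (adjusted p = 0.0514), mimic replicate 2 (0.0871), control replicate 1 (0.105) or control replicate 2 (0.0548). The next 2 probe sets fell by more, 0.37 and 0.44, and in all 4 of 7 fell. ITGB5, a vitronectin receptor chain, fell by 0.34 ± 0.07 (SE) and at 3 of 4 probe sets. ITGB3, known from platelets and osteoclasts, had a change of 0.08 with a 95% interval from -0.08 to 0.25, and none of 7 probe sets passed. ITGB7, a lymphocyte homing chain, had -0.01 with an interval from -0.20 to 0.18.

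ITGB6 is listed on 4 probe sets, each together with LINC02478, so it has no value of its own. The brighter ones went the other way from the beta chains that fell. The brightest read 10.67, 10.76 and 10.82 in the mimic arrays, against 10.41, 10.25 and 10.25 in the control arrays. It rose by 0.44 ± 0.07 (SE; adjusted p = 0.000675), and the next 2 rose by 0.50 and 0.33. The dimmest, at 0.02, did not pass. Those that rose by 0.50 and 0.33 are annotated to a RefSeq messenger RNA, and LINC02478 is a noncoding gene. How the signal divides between the 2 genes was not tested.

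**Figure D2:**
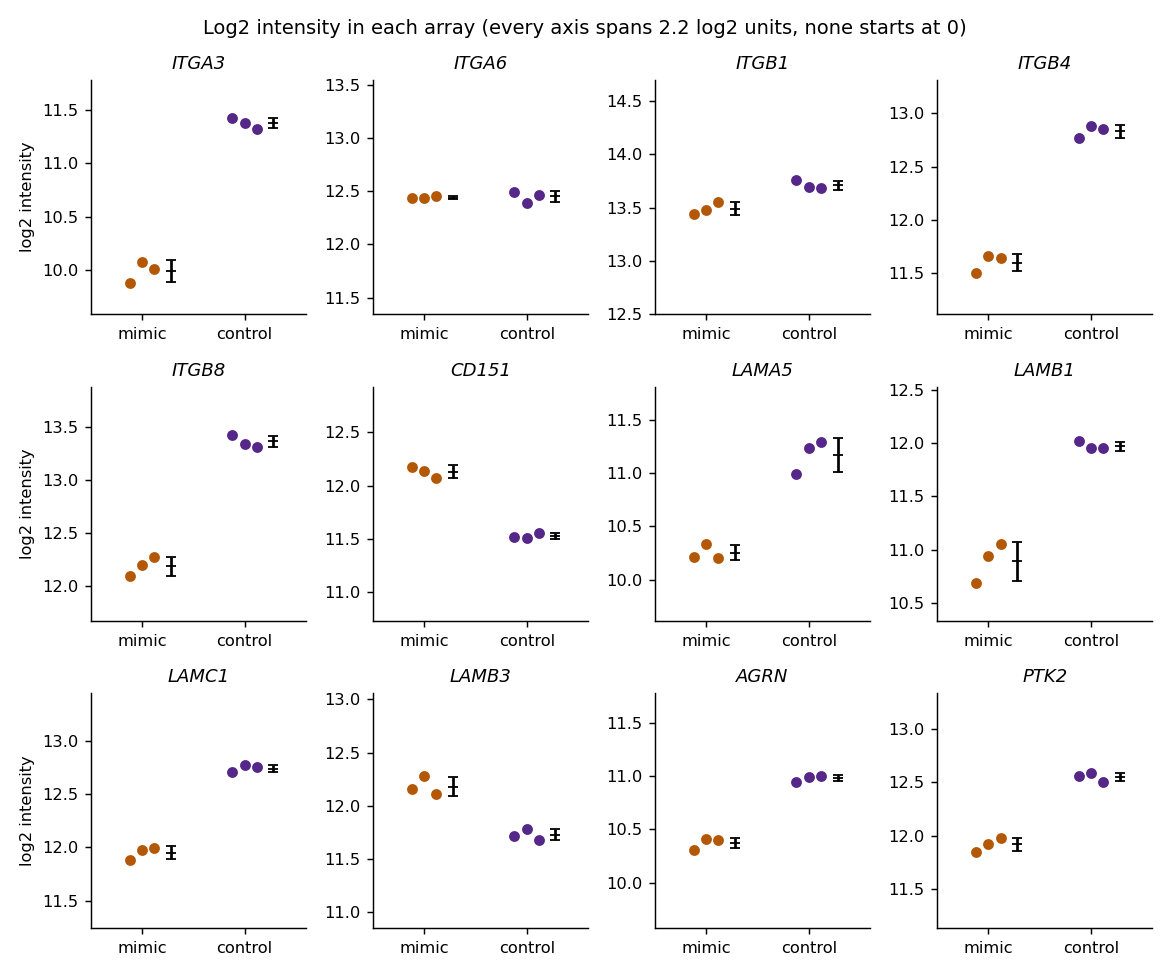
Log2 intensity of 12 members in each array, mimic left and control right; points are single arrays and the black marks are the group mean ± SD (n = 3). The groups overlap only for ITGA6, and the mimic lies above the control only for CD151 and LAMB3 among these 12.

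Among the laminin alpha chains, 1 of 4 fell and 3 did not pass. LAMA5, the alpha chain of the laminin of many adult epithelial basement membranes, read 10.21, 10.33 and 10.20 in the mimic arrays, against 10.99, 11.23 and 11.29 in the control arrays. It fell by 0.92 ± 0.08 (SE; adjusted p = 1.14e-05), 1.89-fold higher in the control. A further probe set, listed for LAMA5 and its antisense gene together, had 0.07 and did not pass. LAMA1, an embryonic chain, LAMA2, the muscle chain, and LAMA4, a chain of vessel walls, averaged 7.18, 6.93 and 7.83 over all arrays, near or under the array medians. Their log2 changes were 0.15, -0.07 and -0.01, and none of their 11 probe sets passed. Without mimic replicate 1, LAMA1 passed as higher (log2 change 0.26, adjusted p = 0.0496).

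All 4 beta and gamma chains passed, 3 lower and 1 higher. LAMB1, the beta chain that joins LAMA5 and LAMC1 in a trimer, read 10.69, 10.94 and 11.05 in the mimic arrays, against 12.02, 11.95 and 11.95 in the control arrays. Its change was -1.08 ± 0.09 (SE; adjusted p = 4.42e-06), with -0.90 at the other probe set. LAMC1, the gamma chain of most laminins, read 11.88, 11.98 and 11.99 in the mimic arrays, against 12.71, 12.77 and 12.75 in the control arrays, a change of -0.79 ± 0.06 (SE), with -0.49 at the other probe set. The chains of that trimer therefore all read lower in every mimic array than in any control array. LAMB2, an alternative beta chain, fell by 0.44 ± 0.06 (SE).

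LAMB3, the beta chain of the laminin to which hemidesmosomes attach, went the other way. It read 12.16, 12.28 and 12.11 in the mimic arrays, against 11.72, 11.78 and 11.68 in the control arrays. Every mimic array lay above every control array, and the change was 0.46 ± 0.07 (SE; adjusted p = 0.000409), 1.37-fold higher, at its only probe set.

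The sequences upstream of LAMB3, LAMB1 and LAMC1 are shown because these chains moved in opposite directions. Each is the 250 bases before the first start site that RefSeq (GRCh38.p14) lists, 5′ to 3′ on the gene's strand. They lie at chr1:209652426-209652675 (minus strand), chr7:108003162-108003411 (minus strand) and chr1:183023170-183023419 (plus strand). Capitals mark the GC box (GGGCGG on either strand).
LAMB3: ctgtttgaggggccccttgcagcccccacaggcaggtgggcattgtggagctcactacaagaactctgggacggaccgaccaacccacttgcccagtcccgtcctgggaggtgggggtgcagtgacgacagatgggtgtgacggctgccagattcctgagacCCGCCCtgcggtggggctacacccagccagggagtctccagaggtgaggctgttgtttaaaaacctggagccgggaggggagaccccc
LAMB1: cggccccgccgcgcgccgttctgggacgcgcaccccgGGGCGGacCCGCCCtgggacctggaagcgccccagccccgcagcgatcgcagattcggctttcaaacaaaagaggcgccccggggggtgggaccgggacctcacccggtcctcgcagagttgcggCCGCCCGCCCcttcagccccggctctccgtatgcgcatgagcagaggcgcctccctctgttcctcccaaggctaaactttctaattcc
LAMC1: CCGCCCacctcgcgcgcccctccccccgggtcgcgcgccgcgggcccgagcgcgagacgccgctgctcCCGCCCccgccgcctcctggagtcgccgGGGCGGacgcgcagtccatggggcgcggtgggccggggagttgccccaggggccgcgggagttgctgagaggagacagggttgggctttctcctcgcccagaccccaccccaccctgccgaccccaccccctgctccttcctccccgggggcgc
The GC box matched 1 time in LAMB3, 4 times in LAMB1, where 2 of the matches share letters, and 3 times in LAMC1. It matched in 42.6% of 35116 such windows over all genes, and in 23 of 37 windows of the 27 members that have one. By call, it matched in 5 of 7 windows of members that rose and in 12 of 19 of those that fell. For members that did not pass it matched in 6 of 11, so the counts in these 3 genes do not stand for the members. AP-1 (TGANTCA, 6.6% of all windows), TEAD (GGAATG, 11.9%) and TATA box (TATAAA, 10.7%) letters, on either strand, did not match in these 3 windows. LAMB3 has 3 listed start sites, and 1 of those windows holds 1 AP-1 match. Which start site the cells use was not measured, and a match is a description of letters only.

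Of 4 other basement membrane genes, 2 fell and 2 did not pass. AGRN, which encodes the proteoglycan agrin, read 10.31, 10.41 and 10.40 in the mimic arrays, against 10.94, 10.99 and 11.0 in the control arrays. It fell by 0.61 ± 0.06 (SE; adjusted p = 2.35e-05) there and by 0.59 at a second probe set, while its 2 dimmer probe sets did not pass. HSPG2, which encodes perlecan, another heparan sulphate proteoglycan, had a change of -0.26 ± 0.08 (SE; adjusted p = 0.0297). It did not pass without mimic replicate 1 (adjusted p = 0.0857), mimic replicate 3 (0.0526), control replicate 2 (0.0783) or control replicate 3 (0.1), nor after quantile normalization again (log2 change -0.19, adjusted p = 0.105) or with its probe sets averaged (-0.17, 0.0737). Its second probe set had -0.08 and did not pass. NID1 and NID2 encode nidogens, which tie laminin to collagen. NID1 had a change of 0.16 with an interval from -0.03 to 0.34 at the probe set used; its dimmest probe set rose by 0.32 (adjusted p = 0.006), reading 4.69, 4.69 and 4.56 in the mimic arrays, against 4.26, 4.43 and 4.29 in the control arrays. NID2 had 0.04 with an interval from -0.10 to 0.19.

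Of the hemidesmosome linkers and CD151, 2 of 3 rose and 1 did not pass. CD151, a tetraspanin that associates with laminin-binding integrins, read 12.18, 12.14 and 12.07 in the mimic arrays, against 11.52, 11.51 and 11.56 in the control arrays. Its change of 0.60 ± 0.06 (SE; adjusted p = 2.51e-05) was the highest among the members. Chains of the integrins it binds differed: ITGA3 fell by 1.39, ITGB4 by 1.23 and ITGB1 by 0.22, while ITGA6, at -0.01, did not pass. PLEC, which encodes plectin, the linker from the ITGB4 tail to keratins, read 10.70, 10.78 and 10.55 in the mimic arrays, against 10.38, 10.66 and 10.63 in the control arrays. These overlap, and the change of 0.12 had an interval from -0.08 to 0.31; its second probe set, at 0.16, did not pass.

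DST, which encodes dystonin, a plakin with an epithelial form that sits in hemidesmosomes, was the member whose probe sets disagreed: 2 of 10 rose, 2 fell and 6 did not pass. The brightest read 11.19, 11.23 and 11.18 in the mimic arrays, against 10.86, 10.95 and 10.83 in the control arrays, a change of 0.32 ± 0.06 (SE; adjusted p = 0.00241). The second brightest, annotated to the RefSeq transcript of the epithelial form, read 10.96, 11.08 and 11.14 in the mimic arrays, against 10.76, 10.74 and 10.70 in the control arrays, also a change of 0.32 (adjusted p = 0.00409). The next in brightness read 10.23, 10.40 and 10.48 in the mimic arrays, against 10.64, 10.70 and 10.63 in the control arrays, a change of -0.29 (adjusted p = 0.0146). The one after it had a change of -0.24 (adjusted p = 0.0461). All 4 of these probe sets separated the groups without overlap, in opposite directions. The direction reported for DST thus depends on the probe set: the mean of all 10 had a change of -0.04 (adjusted p = 0.648). Which transcripts the 2 falling probe sets bind was not analysed here.

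**Figure D3:**
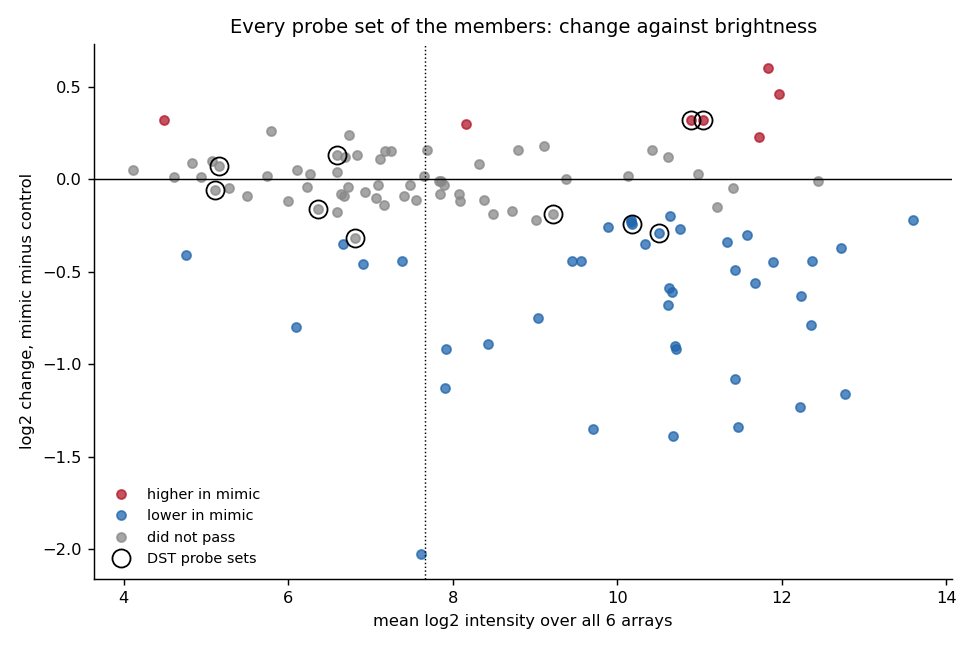
The log2 change (vertical axis) of each of the 108 member probe sets against its mean log2 intensity over all 6 arrays (horizontal axis); colours give the call, rings mark the 10 DST probe sets and the dotted line the highest array median, 7.66. Of the 108, 41 passed as lower and 7 as higher.

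Counted by probe set, 41 of 108 fell and 7 rose, where 13.1% of all probe sets fell and 11.6% rose. Of the 38 members, 26 had more than 1 probe set, and apart from DST none had probe sets called in opposite directions.

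Among focal adhesion linkers and kinases, 3 of 7 fell, 1 rose and 3 did not pass. PTK2 encodes focal adhesion kinase, which signals from clustered integrins. It read 11.85, 11.92 and 11.98 in the mimic arrays, against 12.56, 12.59 and 12.50 in the control arrays. The change was -0.63 ± 0.06 (SE; adjusted p = 2.15e-05), 1.55-fold higher in the control, with -0.56 at the second probe set; 2 dim probe sets, at 0.24 and 0.02, did not pass. VCL, the actin linker vinculin, read 11.38, 11.47 and 11.45 in the mimic arrays, against 11.73, 11.76 and 11.70 in the control arrays, and fell by 0.30 ± 0.06 (SE); its second, dimmer probe set had -0.04 and did not pass. FERMT1, the epithelial kindlin that activates integrins, fell by 0.22 ± 0.06 (SE; adjusted p = 0.0191), a call lost without control replicate 1 (adjusted p = 0.0678), without control replicate 3 (0.0504) or with its probe sets averaged (0.0652). Its relative FERMT2 had a change of -0.15 with an interval from -0.31 to 0.02.

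ILK, the pseudokinase that joins integrin tails to actin with parvins, read 11.77, 11.86 and 11.89 in the mimic arrays, against 11.57, 11.64 and 11.62 in the control arrays. It rose by 0.23 ± 0.06 (SE; adjusted p = 0.0214), a call lost with arrays centred on their medians (adjusted p = 0.0541) and without mimic replicate 2 (0.0879), mimic replicate 3 (0.0662) or control replicate 1 (0.0926). TLN1, which encodes talin, the other activator of integrin tails, lay just outside the threshold. It read 9.24, 9.17 and 9.19 in the mimic arrays, against 9.02, 8.97 and 9.08 in the control arrays, without overlap, and its change was 0.18 ± 0.06 (SE; adjusted p = 0.0549). It passed after quantile normalization again (adjusted p = 0.0238) and with the dimmest probe sets left out (0.0332). A dimmer TLN1 probe set rose by 0.30 (adjusted p = 0.00525). PXN, the adaptor paxillin, had a change of 0.03 with an interval from -0.12 to 0.18.

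Other genes of the same machinery were read from 4 lists, with 98 genes measured. The lists were drawn from general knowledge, but with earlier results of these data known. Of these, 19 rose (19.4%) and 24 fell (24.5%), where 14.1% of all genes rose and 16.3% fell. Of all genes brighter than every array median, 17.9% rose and 22.8% fell, but the lists were not filtered by brightness. The median log2 change of the 98 genes was 0.05. Without mimic replicate 2, 12 rose, and over all genes 2029 rose instead of 2780. Of 38 further focal adhesion genes, 10 rose and 10 fell (26.3% each, median 0.03). NEDD9, a scaffold that PTK2 phosphorylates, averaged 9.63 ± 0.15 in the mimic arrays, against 8.07 ± 0.15 in the control arrays (n = 3 each, SD), 2.95-fold higher, and passed at 2 of its 5 probe sets. TLN2, the second talin gene (log2 change 0.58), CAV1, the caveolar coat gene (0.51), and ROCK1, a kinase that acts on myosin (0.40), also rose. PARVA, the parvin partner of ILK, averaged 8.46 ± 0.04 in the mimic arrays, against 9.39 ± 0.16 in the control arrays (n = 3 each, SD), and fell by 0.93 at this probe set and at 5 of its 7 in all. The adaptor gene CRKL fell by 0.81, the SRC-family kinase gene YES1 by 0.69 and the actin crosslinker gene ACTN1 by 0.61. Without mimic replicate 2, or without control replicate 1, 5 of these focal adhesion genes rose.

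Of 24 further genes listed for basement membrane and hemidesmosomes, 9 fell (37.5%) and 1 rose (4.2%), with a median of -0.02. Over all genes 16.3% fell and 14.1% rose. None of the 24 genes encodes a core hemidesmosome protein, so these shares say nothing of further hemidesmosome genes. The falls include the tetraspanin genes CD9 (-0.54) and CD81 (-0.32), which do not encode basement membrane proteins. TNFRSF11B, a secreted receptor gene that did not pass, does not either. SPARC, a collagen-binding matrix protein gene, fell by 1.95, the collagen IV chain genes COL4A6 by 1.56 and COL4A5 by 0.88, and FBLN1, which encodes a fibulin, by 1.02. SPARC averaged 7.19 in the mimic arrays, under the array medians, against 9.14 in the control arrays, so its size of change rests on readings that cross them. The member of this list that rose was PXDN, by 0.46, an enzyme that crosslinks collagen IV; without control replicate 3, 2 genes rose, and with the probe sets of each gene averaged, 3 rose. Among 25 genes of other integrin ligands, 6 rose (24.0%) and 4 fell (16.0%), with a median of 0.08. CCN1, a matricellular protein that integrins bind, averaged 12.46 ± 0.07 in the mimic arrays, against 10.14 ± 0.02 in the control arrays (n = 3 each, SD), 5.0-fold higher. MFGE8, a ligand of ITGAV integrins, rose by 1.0, TGFB1, whose latent form ITGAV integrins bind, by 0.98, and FBLN5, an elastic fibre gene, by 0.68. The falls were those of TNC (log2 change -1.35), the leukocyte integrin ligand gene ICAM1 (-0.62), FBN1 (-0.44) and CCN2 (-0.33). TNC averaged 7.24 over all arrays, under the array medians, and passed at 1 of its 3 probe sets. TGFB1 passed as higher at 1 of its 2 probe sets, and there it rose in the arrays in which ITGAV and ITGB8 fell.

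Of 11 other genes listed for the integrin family, 2 rose (18.2%) and 1 fell (9.1%), with a median of 0.11. Over all genes 14.1% rose and 16.3% fell. The list includes ITGB1BP1 and ITGB3BP, which do not encode integrin chains. ITGA4, a receptor chain for fibronectin and VCAM1, averaged 7.31 ± 0.02 in the mimic arrays, against 6.30 ± 0.05 in the control arrays (n = 3 each, SD), under the array medians in both groups. It rose by 1.01 ± 0.06 (SE; adjusted p = 4.53e-07), and all 4 of its probe sets passed as higher. ITGAM had a change of 0.21 (adjusted p = 0.0483). It did not pass with the replicate number as a block, with arrays centred on their medians, with a trended and robust eBayes fit, or without mimic replicate 1, mimic replicate 2, control replicate 1 or control replicate 2. ITGB1BP1, which binds the ITGB1 tail, fell by 0.44.

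**Figure D4:**
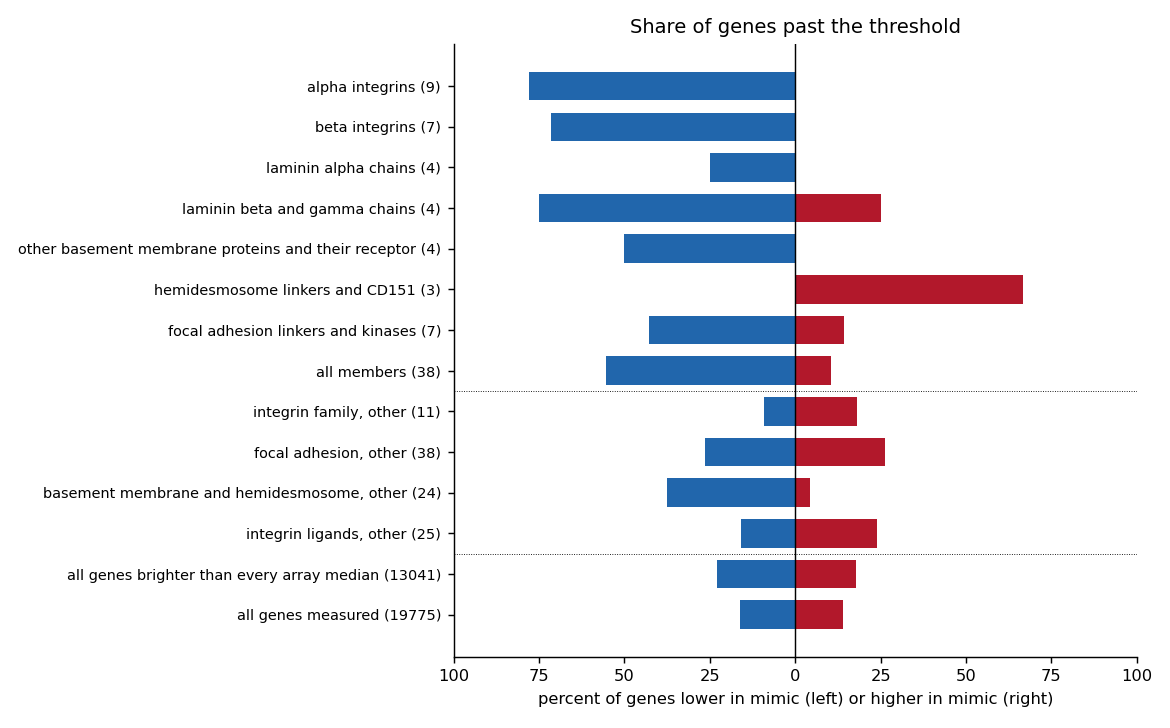
Percent of genes that passed as lower (blue, left) or higher (red, right) in the mimic, for each role of the members, for the 4 other lists and for all genes, with the number of genes measured in brackets. The 38 members show 55.3% lower and 10.5% higher, and all 19775 genes 16.3% lower and 14.1% higher.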

How the data were processed

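The deposited table holds log2 intensities per probe set. The authors normalized the 6 arrays together by RMA, a robust multi-array method, per the submitters' processing notes, and no source used here gives its version. Because RMA gives each array a like distribution, it hides any shift in the total messenger RNA of a cell.

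Control probe sets (62) were removed and 54613 tested. Names came from the platform annotation, in which 41091 tested probe sets had exactly 1 symbol. A gene was represented by its brightest such probe set, judged by the mean of the 6 arrays. The groups were compared in limma 3.58.1 under R 4.3.3, with lmFit and a plain eBayes fit that used neither a trend nor robust weights. P-values were adjusted by Benjamini-Hochberg across the whole table, with a threshold of 0.05. Changes are mimic minus control, and SE is the moderated standard error. The script was tested on simulated data. The labels call the arrays biological replicates.

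Members, lists and tests were chosen with earlier results of these data known. Members past the threshold and changed at least 1.5-fold are given in every array, and other members by change and error. Of each further list, up to 4 rises and 4 falls with the largest changes are named. Arrays of some other members (ITGA6, ITGAV, ITGB1, LAMB3, PLEC, VCL, ILK and TLN1 among them) are also given; these were chosen after their values were seen.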

Additional observations from a re-analysis of the deposited data

How the results depend on the processing

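The 38 members gave 490 values under other settings, and in 33 of them, from 12 members, the call or the sign differed. Leaving out 1 array gave 18 to 20 members lower and 3 to 5 higher, 35 to 40 member probe sets lower and 6 to 9 higher, and 20 to 24 genes of the other lists lower and 12 to 18 higher. By construction fewer passed with a 1.5-fold minimum: 11 members lower and 1 higher, 19 member probe sets lower and 1 higher, and 11 genes of the other lists lower and 6 higher, with 1083 lower and 640 higher over all genes. At an adjusted p under 0.01, 12 genes of the other lists and 1815 of all genes were higher. Signs turned for DST (-0.04), ITGB3 (-0.02) and LAMA4 (0.05) when every probe set of a gene was averaged, and for ITGA6 (0.07) after quantile normalization again; the cause was not tested. Leaving out 1 array gave changes of -0.03 to 0.01 for ITGA6, -0.07 to 0.09 for ITGB7 and -0.02 to 0.0 for LAMA4. No label says whether the replicate numbers mark a shared batch. Deviations of same-numbered arrays correlated at -0.107, 0.084 and 0.082, and mimic replicate 1 correlated best with control replicate 2 (0.12). With 3 arrays per group these correlations are tied to each other and were not tested, so they cannot decide whether the numbers pair the arrays. With the replicate block 20 members were lower and 4 higher, and 26 and 17 genes of the other lists. Quantile normalization again gave 19 members lower and 5 higher, against 3027 of all genes lower and 3418 higher.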
